A study of Mus musculus with 8 samples.

Results

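Cathepsins, legumain and cystatin C were followed in macrophages, monocytes and other cells sorted from the mouse colon. The 10 members were the rows of the UMI matrix for Ctsa, Ctsb, Ctsc, Ctsd, Ctsh, Ctsl, Ctss, Ctsz, Lgmn and Cst3, out of 16889 genes. They were named by gene family and not by a measured value, but with earlier results of these data known. All 10 members passed the low-count filter in every comparison. A UMI is a tag that marks 1 captured transcript, so each value below counts transcripts and not copies of a read.

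Lamina propria cells of the colon were sorted as CD11b+ with CCR2 or CD64 on their surface, from 8 female CD98hcΔCX3CR1 mice aged 6 to 12 weeks. These littermates carried floxed alleles of Slc3a2, which encodes the amino acid transporter subunit CD98hc, and CreER-YFP under the Cx3cr1 promoter, so the Cre acts in cells that express Cx3cr1. The 4 control mice (replicates 1 to 4) received corn oil, and the 4 cKO mice (replicates 5 to 8) received tamoxifen, injected i.p. on 5 days with the readout on day 7. Both groups carried the floxed alleles and the Cre, and only the cKO mice received the drug, so tamoxifen and the deletion cannot be told apart. Cre removes exon 3 of Slc3a2, a change that a 3′ count does not check, and the Slc3a2 level was 337 ± 117 CPM (UMIs of the gene per 1000000 UMIs) in control mice and 320.3 ± 27.9 CPM in cKO mice (mean ± SD, n = 4 each).

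After the filters on cells, 3213 of 5947 barcodes were kept, with 83 to 724 cells and 497531 to 3762314 UMIs per mouse. Control replicate 3 (85 cells) and cKO replicate 5 (83 cells) were the shallowest. A set of 25 barcode strings occurred in more than 1 library, and 73 cells were called doublets and kept, 24 of them in cKO replicate 5. The cells were grouped without the members, the lysosomal genes and the marker genes, and a group was named only from the markers. This gave 675 macrophage-like cells, led by Fcrls, Pf4, C1qc, C1qa and Apoe, in a full-depth cluster of 426 cells and a low-UMI cluster of 249 cells. There were 464 monocyte-like cells (Chil3, Ly6c2, F13a1) and 527 dendritic cell-like cells, whose leading genes included Xcr1, Cd209a, Flt3 and Itgae. The remaining cells were 182 lymphoid cell-like cells, 86 stromal cell-like cells and 3 unnamed clusters, led by Ccl24 (696 cells), Cebpb (331 cells) and Il1a (252 cells). The label of the sort, monocytes and macrophages, therefore did not cover all cells kept. The 16 macrophage markers summed to 60819 CPM in the macrophage-like cells and 1995 CPM in the monocyte-like cells, and the 9 monocyte markers to 635 and 16071 CPM. Since the groups were named from these markers, the sums describe the groups and do not test the names. The macrophage markers also summed to 15965 CPM in the Ccl24-led and 16017 CPM in the Cebpb-led cluster, and the monocyte markers to 11531 CPM in the Il1a-led cluster.

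Cathepsins are proteases of the lysosome, the acidic compartment in which macrophages degrade ingested material. Cathepsins B, L and S are cysteine endopeptidases, cathepsin D is an aspartic endopeptidase, and legumain cuts after asparagine and processes other lysosomal proteases. Cathepsins C, H and Z trim the ends of peptides, and cathepsin A is a serine carboxypeptidase that also protects other lysosomal enzymes. Cystatin C, the product of Cst3, is a secreted inhibitor of cysteine cathepsins. In antigen-presenting cells, cathepsin S and cathepsin L are known to degrade the invariant chain that occupies MHC class II.

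The members lie at separate places in the genome, given here for GRCm38 from the GENCODE vM21 annotation, as whole genes with their exons and introns. On chromosome 2 lie Ctsa (ENSMUSG00000017760, 164832873 to 164841032, + strand), Cst3 (ENSMUSG00000027447, 148871722 to 148875692, − strand) and Ctsz (ENSMUSG00000016256, 174427493 to 174439039, − strand). On chromosome 7 lie Ctsc (ENSMUSG00000030560, 88278085 to 88310888, + strand) and Ctsd (ENSMUSG00000007891, 142375911 to 142388038, − strand). Ctss is on chromosome 3 (ENSMUSG00000038642, 95526786 to 95556403, + strand) and Ctsh on chromosome 9 (ENSMUSG00000032359, 90054152 to 90076089, + strand). Lgmn is on chromosome 12 (ENSMUSG00000021190, 102394084 to 102439813, − strand), Ctsl on chromosome 13 (ENSMUSG00000021477, 64359337 to 64370890, − strand) and Ctsb on chromosome 14 (ENSMUSG00000021939, 63122462 to 63145923, + strand).

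Many lysosomal genes carry the E-box CACGTG, the core of the element read by the transcription factor TFEB, near their start, and interferon-responsive genes carry a repeat of GAAA. These 2 motifs were searched in the RefSeq windows (GRCm38.p6) that run from 250 bases before a start to 50 after it. Of the 10 members, 8 had a window; Ctsb and Ctsh are named only. CACGTG, which reads the same on both strands, lay in windows of 4 of these 8 members, which had 10 windows together. In all, 7.15% of 32851 windows held it, a share of windows and not of genes. For Ctsa and Lgmn the match was at the start further inside the gene, and the window of the outer start held none. GAAA followed after any 2 bases by GAAA, on either strand, lay in the window of 1 member, Ctss, and in 3.44% of all windows. The stretches before a start that hold a match are shown 5′ to 3′ on the strand of the gene, with the motif in capitals, so that the letters around each match can be read. The genes with CACGTG were Ctsa, Ctsd, Ctsl and Lgmn, and nothing is drawn from the match about the values below. A match is a description of the letters and not of binding. Ctsa holds another CACGTG just after the same start, which is not printed.
Ctsd, chr7:142388039-142388077 (− strand): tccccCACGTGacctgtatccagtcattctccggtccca
Ctsd, chr7:142387908-142387937 (− strand): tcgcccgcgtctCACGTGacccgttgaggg
Ctsl, chr13:64370741-64370770 (− strand): gcggcgttagaagcCACGTGctgatctaaa
Lgmn, chr12:102439093-102439192 (− strand): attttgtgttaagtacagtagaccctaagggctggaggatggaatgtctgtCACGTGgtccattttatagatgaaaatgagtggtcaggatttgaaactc
Ctsa, chr2:164833743-164833772 (+ strand): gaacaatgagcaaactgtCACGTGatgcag
Ctss, chr3:95526686-95526785 (+ strand): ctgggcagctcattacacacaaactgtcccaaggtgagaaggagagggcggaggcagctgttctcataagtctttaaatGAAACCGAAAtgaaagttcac

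The levels of the members by cell type were then compared over mice. Counts were summed per mouse and cell type where at least 20 cells were present, which gave 42 sums, and expressed as CPM of that sum. Each UMI is counted at the 3′ end, so values were not divided by transcript length. The members together made up 2.46% of the UMIs of dendritic cell-like cells and 2.02% of those of macrophage-like cells, against 1.26% in monocyte-like and 0.339% in lymphoid cell-like cells. These shares had a different makeup: Cst3 held 85.2 ± 3.91% (SD, n = 7 mice) of the members' UMIs in dendritic cell-like cells and 11.9 ± 1.96% (n = 7) in macrophage-like cells.

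**Figure D1:**
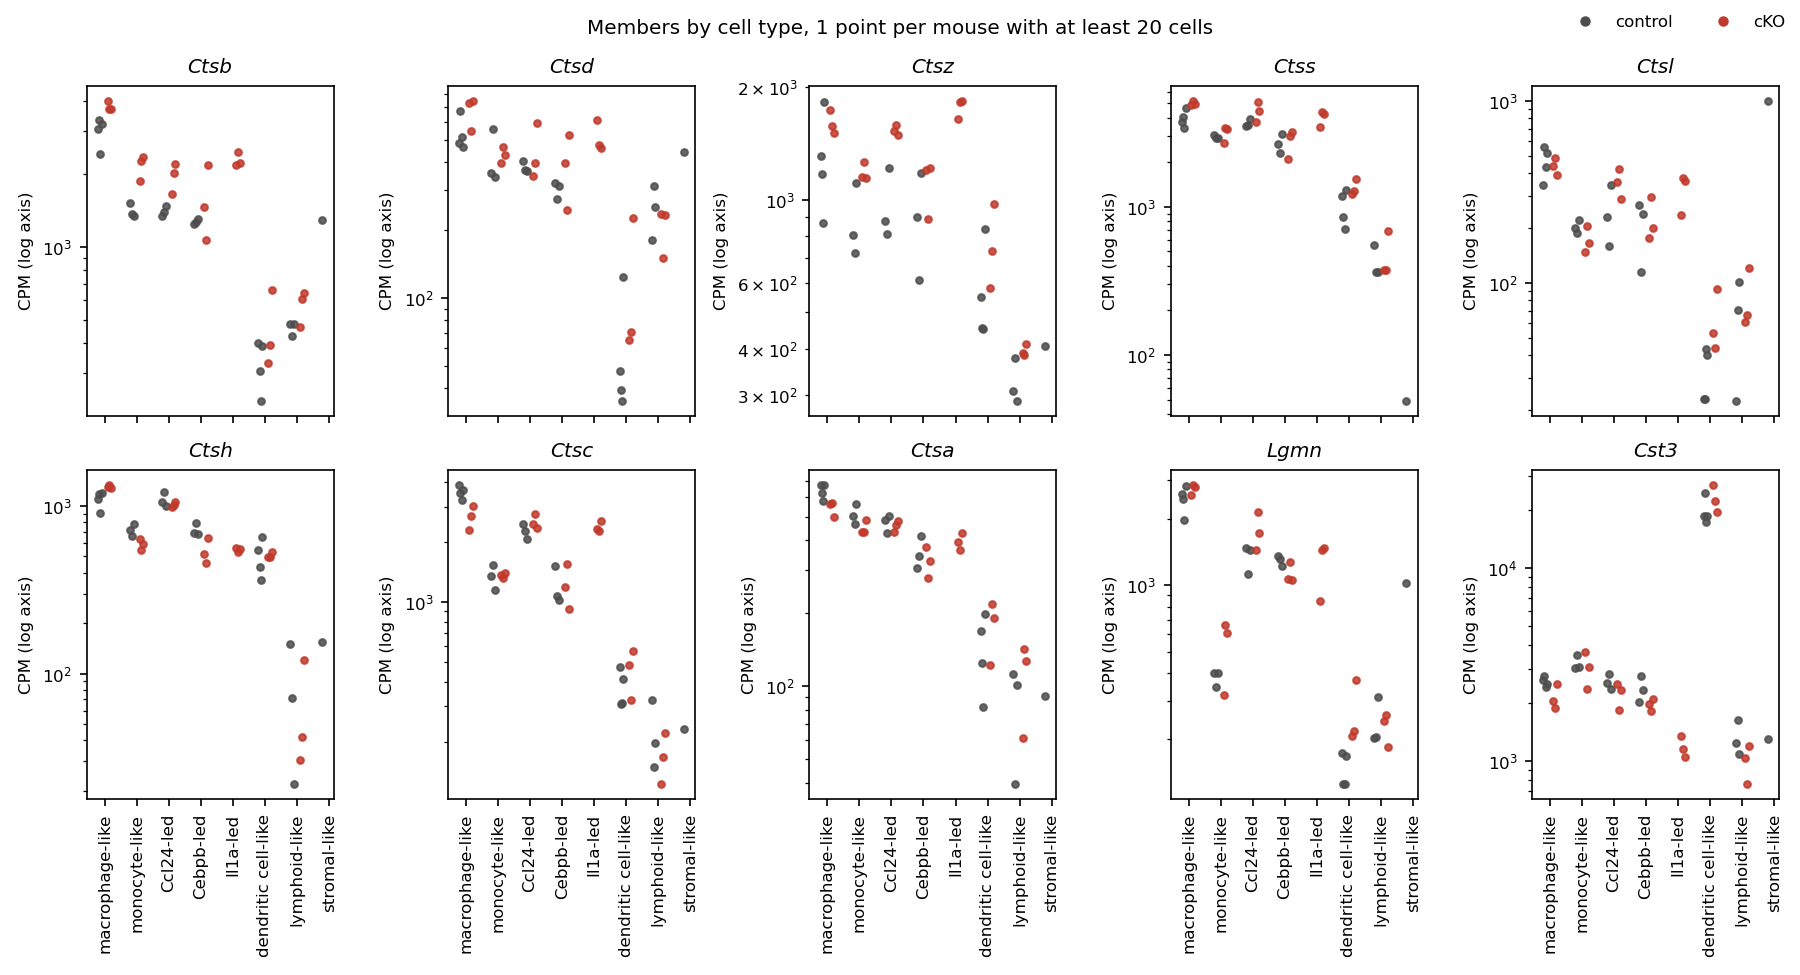
Level of each member (CPM on a log axis) in each cell type, with 1 point per mouse. Cst3 sits highest in the dendritic cell-like cells (17283 to 26866 CPM), and 8 of the 9 proteases have their highest mean over several mice in the macrophage-like cells.

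Among the endopeptidases, Ctsb was highest in macrophage-like cells (3350.3 ± 523 CPM, n = 7), followed by the Il1a-led cluster (2285 ± 148 CPM, n = 3, cKO mice only) and monocyte-like cells (1784 ± 445 CPM, n = 6). In cKO mice alone the monocyte-like cells had 2160 ± 248 CPM of Ctsb, and the Il1a-led cluster was higher than they were in 2 of 3 mice. Ctsb was lowest in dendritic cell-like cells, at 387 ± 134 CPM (n = 7). Ctss was 4398 ± 679 CPM in macrophage-like cells, 4042 ± 619 CPM (n = 6) in the Ccl24-led cluster and 3999 ± 492 CPM in the Il1a-led cluster, and the ranges of these neighbours overlapped. Monocyte-like cells followed with 3053 ± 271 CPM, without overlap with the Il1a-led cluster, and dendritic cell-like cells had 1154 ± 279.5 CPM. Ctsl showed another order, because the stromal cell-like cells had the highest level: 1204 CPM over their pooled 512 UMIs (exact Poisson 95% interval 1102 to 1313, counting error only), and only 1 mouse had 20 such cells. Macrophage-like cells had 452 ± 73.8 CPM of Ctsl and monocyte-like cells 188 ± 27.5 CPM. Ctss was lowest in those stromal cell-like cells, at 61.1 CPM (39.9 to 89.6, 26 UMIs). Ctsd ran from 595 ± 118 CPM in macrophage-like cells to 87.2 ± 68.6 CPM in dendritic cell-like cells, and the ranges of neighbours in that order overlapped throughout.

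The peptidases that trim peptide ends and legumain also peaked in macrophage-like cells, apart from Ctsz. Lgmn was 2585 ± 304 CPM (n = 7) there and 1564 ± 348 CPM (n = 6) in the Ccl24-led cluster, against 457 ± 144 CPM (n = 6) in monocyte-like cells. The Cebpb-led cluster (1218 ± 127 CPM of Lgmn, n = 6) lay above the monocyte-like cells without overlap. Ctsc was 3198 ± 554 CPM in macrophage-like cells and 2414 ± 231 CPM in the Ccl24-led cluster, and fell to 1356 ± 123 CPM in monocyte-like and 412 ± 102 CPM in dendritic cell-like cells. Ctsh kept a higher level in dendritic cell-like cells (503 ± 92.0 CPM) than in lymphoid cell-like cells (72.6 ± 52.2 CPM), and had 1185 ± 148 CPM in macrophage-like cells. Ctsz was highest in the Il1a-led cluster (1768 ± 110.4 CPM, n = 3, cKO mice only) and next in macrophage-like cells (1429.9 ± 337 CPM), with overlapping ranges. The macrophage-like mean holds mice of both groups, and in cKO mice alone it was 1609 ± 121 CPM. Within a mouse, the Il1a-led cluster was higher than the macrophage-like cells in 2 of 3 mice. Ctsa, the protective carboxypeptidase, was 597 ± 64.5 CPM in macrophage-like, 481 ± 49.8 CPM in monocyte-like and 342 ± 49.0 CPM in Cebpb-led cells. The inhibitor gene Cst3 was 21033 ± 3532 CPM (n = 7) in dendritic cell-like cells and 3121 ± 455 CPM (n = 6) in monocyte-like cells, the next in order, with no overlap. Free RNA can add UMIs of an abundant gene such as Cst3 to cells that do not express it, and its part in the low levels was not tested.

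The macrophage-like and monocyte-like cells of the same 6 mice were compared to ask how the members differ between these types. The fit was edgeR's quasi-likelihood test with the mouse as a block and Benjamini-Hochberg adjustment over 8665 genes. All 10 members passed the false discovery rate of 0.05: the 9 proteases were higher in macrophage-like cells and Cst3 was lower. Over all genes tested, 12.2% were called higher and 12.6% lower. The median log2 difference of the members was 0.76, against 0.05 for all genes.

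Lgmn showed the largest difference of the members. Its level in monocyte-like cells was 399.6, 346 and 400.4 CPM in control replicates 1, 2 and 4 and 319.7, 663 and 611 CPM in cKO replicates 6, 7 and 8. In macrophage-like cells of the same mice it was 2596, 2461 and 2812 CPM and 2578, 2859.5 and 2806 CPM. The lowest macrophage-like sample thus lay above the highest monocyte-like sample, and the difference was 6.06-fold (SE 0.13 on the log2 scale, edgeR adjusted p = 1.76e-22).

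Ctsl was 199.8, 187 and 222 CPM in the monocyte-like cells of control replicates 1, 2 and 4 and 147, 206 and 166 CPM in those of cKO replicates 6, 7 and 8. The macrophage-like cells had 343, 556 and 517 CPM and 436, 487 and 390.1 CPM. No values overlapped, and the difference was 2.41-fold (log2 1.27, SE 0.14, edgeR adjusted p = 2.23e-10). Ctsc differed by 2.35-fold (log2 1.23, SE 0.12), Ctsb by 2.02-fold (log2 1.01, SE 0.11) and Ctsh by 1.91-fold (log2 0.93, SE 0.12). The largest edgeR adjusted p of these genes was 7.50e-09, for Ctsh. Ctss, Ctsz and Ctsd differed by 0.59, 0.59 and 0.52 on the log2 scale, with edgeR adjusted p of 7.80e-06, 5.01e-05 and 0.00101. The value of Ctsd depended on the grouping of cells and was 0.93 with clusters from all genes and 0.85 with 12 clusters. Each of the 9 proteases was higher in the macrophage-like cells in 6 of 6 mice.

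The inhibitor ran the other way. Cst3 was 3037, 3536 and 3079 CPM in monocyte-like cells of control replicates 1, 2 and 4 and 3652, 2366 and 3058 CPM in cKO replicates 6, 7 and 8. In macrophage-like cells it was 2623, 2762 and 2501 CPM and 2049.8, 1881 and 2515 CPM, lower in 6 of 6 mice although the ranges overlapped. The log2 difference was −0.37 (SE 0.11, edgeR adjusted p = 0.00815). This call and that of Ctsa (log2 0.33, SE 0.12, edgeR adjusted p = 0.0372) were the least secure: without cKO replicate 6 the adjusted p of Cst3 was 0.0893, and that of Ctsa was 0.0604 to 0.121 without any 1 of control replicates 1, 2 and 4 and cKO replicates 6 and 7. With clusters from all genes, Ctsa was 0.16 on the log2 scale (edgeR adjusted p = 0.447). The groups of cells were found by clustering the same cells on other genes, which the p-values do not include.

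**Figure D2:**
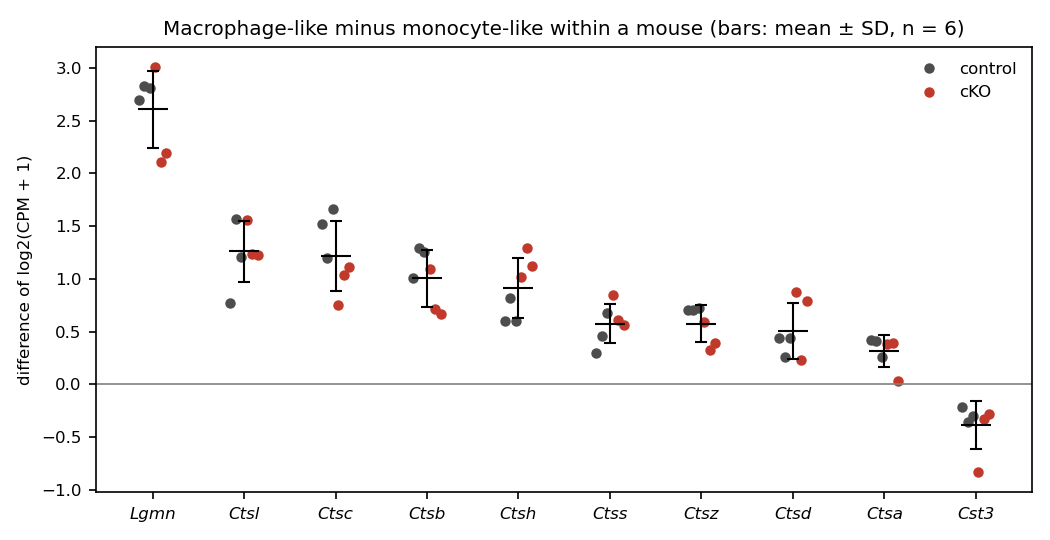
Difference between macrophage-like and monocyte-like cells of the same mouse on the log2(CPM + 1) scale, with 1 point for each of 6 mice and bars at the mean ± SD. The 9 proteases lie above 0 and Cst3 below 0 in every mouse, with Lgmn highest and 1 cKO mouse of Ctsa close to 0.

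The macrophage-like cells themselves consisted of a full-depth and a low-UMI cluster, and these could be compared in 5 mice. Ctsl was higher in the low-UMI cluster in 5 of 5 mice, by 0.64 ± 0.38 on the log2(CPM + 1) scale. Ctsh, Ctsz and Ctss were lower there in 5 of 5 mice, by 0.41, 0.36 and 0.32. The exact sign-flip test gave p = 0.0625 for each of these, the smallest that 5 mice allow. The median UMI count of the low-UMI cells was 0.236 of that of their own mice, and the part of this depth in the differences was not tested. With the full-depth cluster alone, the macrophage minus monocyte difference of Ctsd was 0.33 with an edgeR adjusted p of 0.0822, and that of Ctsa 0.30 with 0.133.

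The dendritic cell-like cells were the reverse of the macrophage-like cells for these genes. Cst3 was among their leading 10 genes, and it had not been used to group the cells. In control replicates 1 to 4 it was 18559, 24363, 17283 and 18589.9 CPM, and in cKO replicates 6 to 8 it was 26866, 22101 and 19471 CPM. Within a mouse, Cst3 was higher in dendritic cell-like than in macrophage-like cells by 3.13 ± 0.36 on the log2(CPM + 1) scale (7 of 7 mice). The 9 proteases were all lower there in 7 of 7 mice, from −1.15 for Ctsz to −3.16 for Ctsb, −3.41 for Ctsl and −3.78 ± 0.44 for Lgmn. An exact two-sided sign-flip test gave p = 0.0156 for each of the 10 members, the smallest that 7 mice allow, and 0.0476 after Benjamini-Hochberg adjustment over 70 such differences. Against monocyte-like cells, Cst3 was higher by 2.79 ± 0.24 in 6 of 6 mice, and the proteases were lower, from −0.32 for Ctsh to −2.39 for Ctsd (exact sign-flip p = 0.0312 each, the smallest that 6 mice allow, adjusted 0.0476).

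A finer grouping divided the dendritic cell-like cells into a cluster led by Xcr1, the receptor that marks cross-presenting dendritic cells, and a cluster led by Cd209a. Only control replicates 1, 2 and 4 and cKO replicate 8 had at least 20 cells in both. In the Xcr1-led cluster of these 4 mice, in that order, Cst3 was 26722, 29163, 33361 and 31596 CPM. The Cd209a-led cluster of the same mice had 6159, 6594, 6834 and 6628 CPM. These values were far apart in every mouse, with a difference of 2.20 ± 0.08 on the log2(CPM + 1) scale. All 9 proteases were lower in the Xcr1-led cluster in 4 of 4 mice, for example by −1.04 ± 0.16 for Ctsz, −1.05 ± 0.88 for Ctsb and −1.66 ± 0.92 for Lgmn. The differences ran from −2.34 to −0.46 for Ctsb and from −3.02 to −1.03 for Lgmn, the widest of both in cKO replicate 8. For Ctsl and Ctsd the Xcr1-led cluster held only 1 to 18 and 8 to 31 UMIs per mouse, so the size of their difference is not given. With 4 mice the exact sign-flip test cannot go below p = 0.125, which was reached for each member (0.141 after adjustment).

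Across the 42 sums, the proteases varied together, while their correlations with Cst3 ran from negative to weakly positive. This is a description over sums that share mice and depth. Pearson's r of log2(CPM + 1) was 0.316 to 0.930 over the 36 pairs of proteases, with a median of 0.796. It was −0.696 (Ctsd) to 0.275 (Ctsh) over the 9 pairs with Cst3. Over the 28 sums of monocyte-like, macrophage-like and unnamed clusters alone, the protease pairs had 0.159 to 0.822, with a median of 0.602. The pairs with Cst3 there had −0.569 to 0.352. Of the 4837 genes compared, Ctsb was most like Ftl1 (0.898), C5ar1 (0.898) and Ctsd (0.885), and Ctsl most like Ecm1 (0.903), Lgmn (0.878) and Ctsb (0.869). Lgmn was most like Ms4a7 (0.910), C3ar1 (0.899) and Apoe (0.889), and Ctsd most like Ctsb (0.885), Ecm1 (0.836) and Ctsl (0.833). Ctss was nearest to Fcer1g (0.948), Ms4a6d (0.946) and Ms4a6c (0.945), and Ctsz to Fth1 (0.931), Clec4n (0.912) and Sdcbp (0.904). Ctsa and Ctsc shared Fcgr3 as the nearest gene (0.955 and 0.940). Behind it came Ftl1 (0.941) and Clec4a3 (0.931) for Ctsa, and Clec4a2 (0.933) and Ctsa (0.930) for Ctsc. Ctsh was nearest to Ly86 (0.958), Cd300a (0.929) and Clec4b1 (0.924). The genes most like Cst3 were Ppt1 (0.892), a lysosomal thioesterase, and Irf8 (0.881), a transcription factor of dendritic cells.

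The 4 cKO mice were then compared with the 4 control mice over all cells, to ask whether the members' transcripts changed with tamoxifen. Counts were summed per mouse and tested with edgeR's quasi-likelihood test over 11387 genes. Of the 10 members, 3 rose (Ctsb, Ctsd and Ctsz) and 1 fell (Cst3) at a false discovery rate of 0.05, and 6 of 10 had an unadjusted p under 0.05, as 20.6% of all genes tested did. Of all genes tested, 2.99% were called higher and 1.48% lower. The members' median log2 fold change was 0.32, against −0.03 for all genes.

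Ctsb was 1407, 1395, 1034 and 1189 CPM in control replicates 1 to 4 and 1891, 1640.4, 2143 and 2002 CPM in cKO replicates 5 to 8. All cKO mice lay above all control mice, with a log2 fold change of 0.71 (SE 0.14, edgeR adjusted p = 0.0199). Ctsd was 292, 309.8, 255 and 278 CPM in control mice and 591, 367, 412 and 463 CPM in cKO mice. These groups did not overlap either (log2 0.78, SE 0.16, edgeR adjusted p = 0.0183), and the highest value was that of cKO replicate 5, the mouse with the fewest cells. Ctsz, the carboxypeptidase, was 831, 709, 652 and 1079.7 CPM in control mice and 1132, 1193, 1423 and 1266 CPM in cKO mice. The lowest cKO mouse was close to the highest control mouse, and the log2 fold change was 0.71 (SE 0.17, edgeR adjusted p = 0.0355).

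Cst3 was 7835, 12808, 8574 and 8142 CPM in control mice and 5487, 6077, 3204 and 5433 CPM in cKO mice. Control replicate 2 stood above the other control mice, and every cKO mouse lay below every control mouse. The log2 fold change was −0.80 (SE 0.21, edgeR adjusted p = 0.0493). Ctss was 2487, 2147, 1794 and 2694 CPM in control mice and 3053, 2725, 3797 and 3351 CPM in cKO mice. It did not pass the threshold (log2 0.60, SE 0.16, edgeR adjusted p = 0.0533), although its groups did not overlap. In all, 4 members had every cKO mouse above every control mouse and 1 had every cKO mouse below, where 4% and 8.34% of all genes tested did, or 5.86% and 6.11% with CPM scaled by TMM factors, which left the same 5 members apart.

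The other 5 members did not pass the test. Their log2 fold changes were 0.35 (SE 0.16) for Lgmn, 0.30 (SE 0.17) for Ctsc, 0.22 (SE 0.15) for Ctsa, 0.10 (SE 0.14) for Ctsh and 0.07 (SE 0.18) for Ctsl. The lowest edgeR adjusted p of these was 0.24, for Lgmn. The 9 proteases together made up 0.836 ± 0.124% of UMIs in control mice and 1.10 ± 0.110% in cKO mice (n = 4 each), and with Cst3 included the shares were 1.77 ± 0.248% and 1.61 ± 0.0582%.

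**Figure D3:**
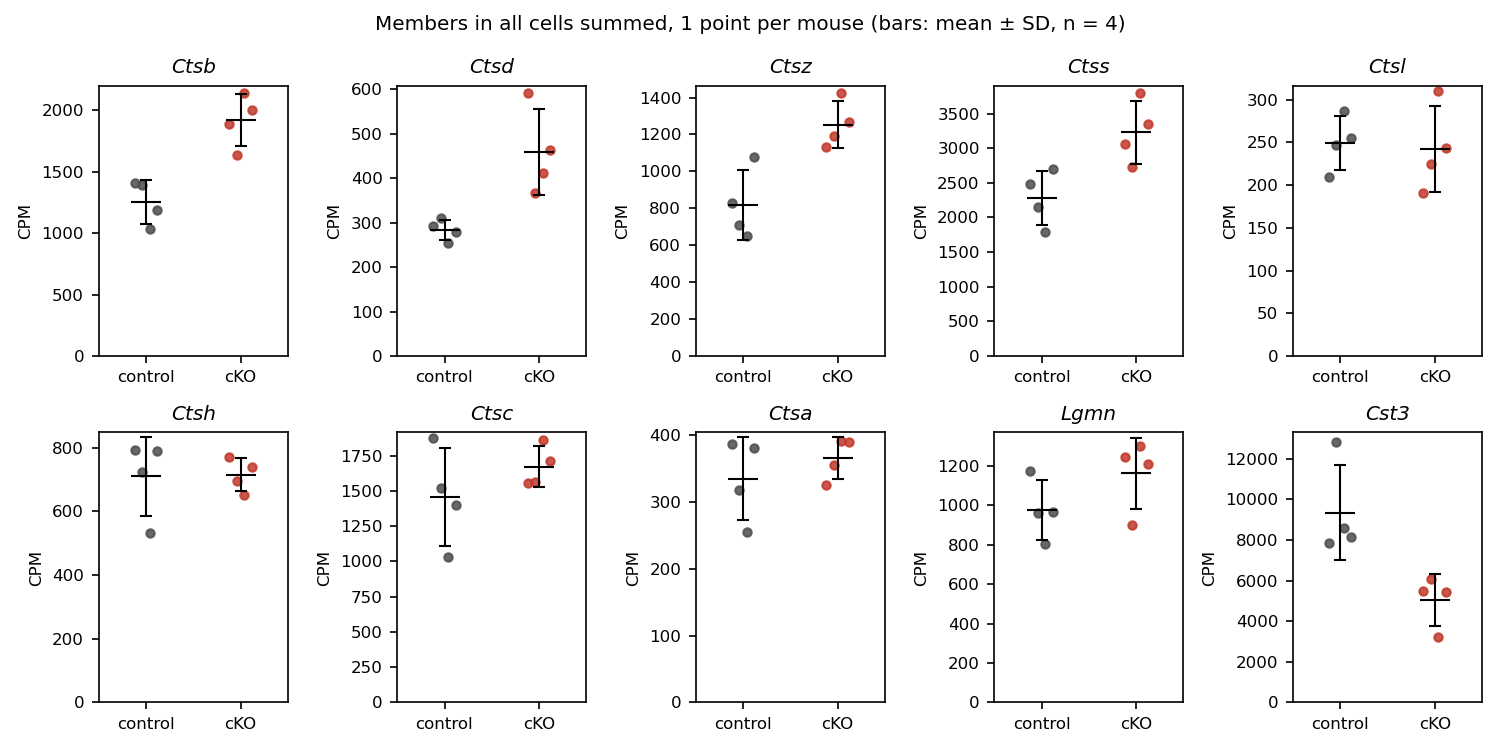
Level of each member (CPM) over all cells of each mouse, for 4 control and 4 cKO mice, with the group mean and SD. Ctsb, Ctsd, Ctss and Ctsz of the cKO mice lie above, and Cst3 below, those of all control mice.

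These 4 calls were close to the threshold. The call of Cst3 was lost (edgeR adjusted p 0.0559 to 0.167) without any 1 mouse other than control replicate 4, and that of Ctsz (0.0614 to 0.132) without any 1 of control replicates 1, 2 and 3 and cKO replicates 6, 7 and 8. The call of Ctsb was lost without control replicate 2, cKO replicate 7 or cKO replicate 8 (0.0544 to 0.0612), and that of Ctsd without control replicate 1, control replicate 2 or cKO replicate 8 (0.0505 to 0.0585).

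The makeup of the samples moved with these values. Dendritic cell-like cells were 20.0, 27.5, 25.9 and 21.3% of the cells of control replicates 1 to 4 and 10.8, 8.31, 4.75 and 9.91% of those of cKO replicates 5 to 8. Monocyte-like cells went the other way, from 6.88 ± 2.93% to 22.4 ± 3.80%, and the Il1a-led cluster from 0.689% to 15.1%, of which 148 of 236 cKO cells came from cKO replicate 7. Each of these shares had an exact permutation p of 0.0286, the smallest that 4 against 4 mice allow, or 0.0524 after adjustment over 11 shares. Macrophage-like cells were 25.2% and 16.7% of cells (exact permutation p = 0.171, adjusted 0.21). The 8 dendritic cell markers summed to 426 to 524 CPM in control mice and 82.5 to 215 CPM in cKO mice, and the 9 monocyte markers to 1643 to 3358 and 7091 to 10464 CPM. In a sum over all cells, fewer cells of a type and less RNA per cell cannot be told apart.

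With the UMIs of all mice of a group pooled, most Cst3 UMIs came from dendritic cell-like cells, 84.3% in control and 62.5% in cKO mice. The monocyte-like cells held 1.89% and 14.5%. Pooled Ctsb UMIs came from macrophage-like cells for 49.9% in control mice and 18.5% in cKO mice, and from monocyte-like cells for 6.09% and 26.5%. In such pooled shares mice with more UMIs weigh more, and no spread over mice is given. The macrophage-like share of cells alone ran from 12.4 to 36.0% among control mice and from 11.4 to 22.9% among cKO mice. Without the dendritic, lymphoid and stromal cell-like cells, none of the 10 members was called by edgeR, and 1 (Ctsz) had an unadjusted p under 0.05, against 17.3% of all genes. The log2 fold change of Cst3 was then −0.13 (edgeR adjusted p = 0.725), that of Ctsb 0.24 (0.484), that of Ctsd 0.33 (0.422) and that of Ctsz 0.47 (0.118). Those of Ctsa, Ctsc, Ctsh, Lgmn and Ctsl turned negative, from −0.17 for Ctsh to −0.33 for Ctsl, none of them called. A mean of the effects within cell types was taken over the monocyte-like, macrophage-like, Ccl24-led and Cebpb-led cells only. Dendritic and lymphoid cell-like cells were not part of it. In this mean Ctsb (log2 0.43, edgeR adjusted p = 0.012) and Ctsz (log2 0.42, edgeR adjusted p = 0.0336) were called. Ctsd (0.24, edgeR adjusted p = 0.555) and Cst3 (−0.21, edgeR adjusted p = 0.305) were not.

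**Figure D4:**
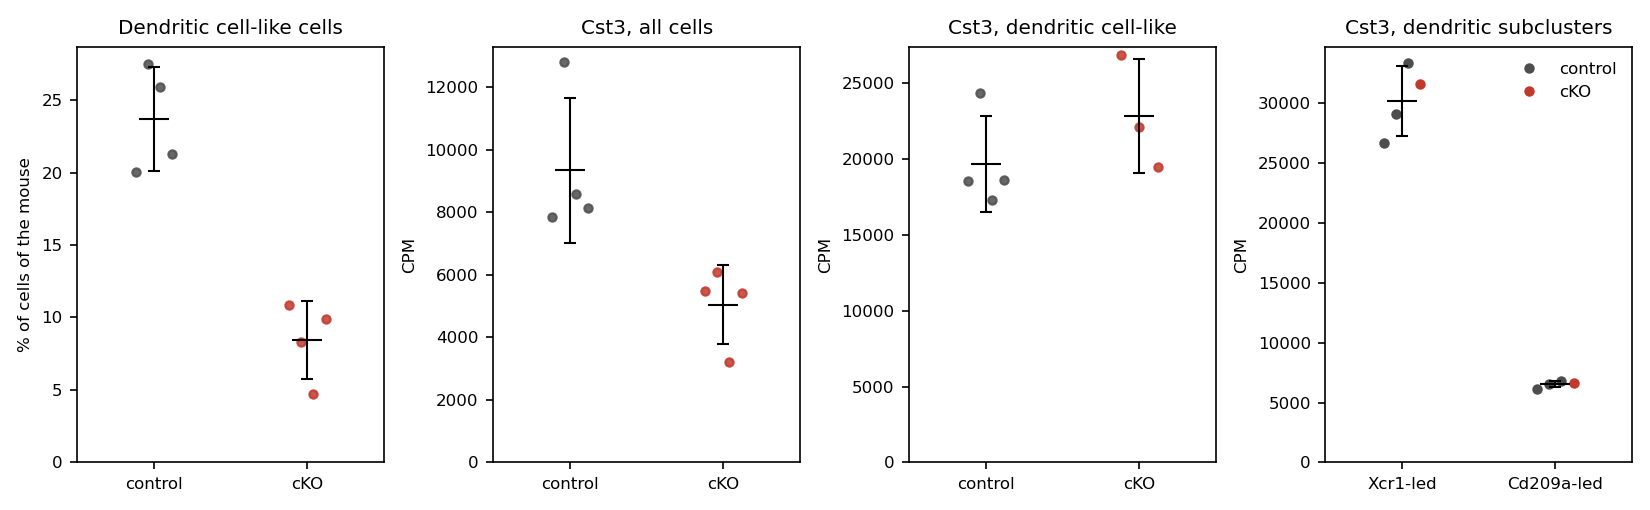
From left to right, 1 point per mouse with bars at the mean ± SD: the share of dendritic cell-like cells (% of cells), Cst3 over all cells (CPM), Cst3 in dendritic cell-like cells (CPM) and Cst3 in the Xcr1-led and Cd209a-led clusters (CPM, 4 mice). Control and cKO mice are apart in the first and second panels and overlap in the third, and the Xcr1-led cells (30210 ± 2894 CPM) lie above the Cd209a-led cells (6554 ± 284 CPM).

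Within single cell types, edgeR called none of the 60 member tests (10 members in 6 types) at a false discovery rate of 0.05, and 10 of the 60 had an unadjusted p under 0.05, against 7.43% of all genes over the 6 types. DESeq2 called 4 of them (Ctsb in monocyte-like cells, Ctsz in the Ccl24-led cluster, and Lgmn and Ctsl in dendritic cell-like cells). Since several sums come from the same mouse, limma-voom was also run with a random effect for each mouse, and it called 4 too (Ctsb in monocyte-like cells, Ctsb and Ctsz in the Ccl24-led cluster, and Ctsc in macrophage-like cells). Of all genes, edgeR called 0.856% higher and 0.216% lower in the Ccl24-led cluster, 0.388% and 0.27% in macrophage-like, 0.234% and 0.0901% in monocyte-like and 0.216% and 0.027% in dendritic cell-like cells. The shares were 0.0721% and 0.018% in lymphoid cell-like cells and 0.0451% and 0.00901% in the Cebpb-led cluster.

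In monocyte-like cells Ctsb was 1518, 1361 and 1344 CPM in control replicates 1, 2 and 4 and 1878, 2257 and 2346 CPM in cKO replicates 6, 7 and 8. The groups did not overlap, but the test over all genes was not passed (log2 0.77, SE 0.21, edgeR adjusted p = 0.127), while the fit with that random effect passed it (log2 0.79, limma-voom adjusted p = 0.0325). In the Ccl24-led cluster, whose leading genes include Ccl24 and Sirpb1c, Ctsb was 1334, 1394 and 1471 CPM in control and 1653, 2016 and 2198 CPM in cKO mice (log2 0.48, SE 0.21, edgeR adjusted p = 0.502, limma-voom adjusted p = 0.0332). Ctsz of the same cluster was 877, 812 and 1214 CPM in control and 1529.8, 1581 and 1488 CPM in cKO mice (log2 0.66, SE 0.23, edgeR adjusted p = 0.247, limma-voom adjusted p = 0.0173). The macrophage markers within monocyte-like cells summed to 3172 to 4431 CPM in control and 989 to 1642 CPM in cKO mice, with 1 to 4 of 16 markers at 0, and the monocyte markers to 12018 to 13106 and 16651 to 17797 CPM. Their part in these values was not tested.

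In dendritic cell-like cells Lgmn was 173, 125, 125 and 168 CPM in control replicates 1 to 4 and 208, 219 and 371 CPM in cKO replicates 6 to 8. No values overlapped, and the log2 fold change of 0.80 (SE 0.24) had an edgeR adjusted p of 0.22. Ctsl was 23.0, 22.9, 43.1 and 40.3 CPM in control and 53.1, 43.8 and 92.2 CPM in cKO mice, from 8 to 43 UMIs per mouse (log2 1.10, SE 0.35, edgeR adjusted p = 0.28). Cst3 itself did not pass the test in these cells (log2 0.14, SE 0.17, edgeR adjusted p = 0.959). In cKO replicate 8, which had the highest Lgmn and Ctsl, the 16 macrophage markers summed to 3195 CPM in the dendritic cell-like cells, against 810 to 2086 CPM in the other 6 mice, with up to 5 markers at 0. The part of those transcripts was not tested. In the Xcr1-led cluster Lgmn was 117, 102 and 84.7 CPM in control replicates 1, 2 and 4 and 82.8 CPM in cKO replicate 8. In the Cd209a-led cluster it was 258, 209 and 234 CPM and 677 CPM. Xcr1-led cells were 14.2% of cells in control and 4.35% in cKO mice, and Cd209a-led cells 9.47% and 4.11%. The part of this mix in the values of the dendritic cell-like cells was not tested.

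In macrophage-like cells Ctsc, which activates serine proteases of immune cells, was 3887, 3529, 3263 and 3650.1 CPM in control replicates 1 to 4 and 2307, 2723 and 3029.7 CPM in cKO replicates 6 to 8. The highest cKO value was below the lowest control value, without passing edgeR's test (log2 −0.47, SE 0.20, adjusted p = 0.463), while the limma-voom fit passed (log2 −0.52, adjusted p = 0.0247). Most macrophage-like cells of control mice were in the full-depth cluster (341 of 470) and most of those of cKO mice in the low-UMI cluster (120 of 205). The other members of this type had lower ratios to their errors; Ctsb was 0.27 (SE 0.20) and Cst3 −0.31 (SE 0.18) on the log2 scale. Whether the change between groups differed between macrophage-like and monocyte-like cells was tested as an interaction. None of the 10 members was called by edgeR, and Ctsc alone had an unadjusted p under 0.05 (log2 −0.65, edgeR adjusted p = 0.715), as 6.59% of all genes did, with 0.00901% of all genes called lower and 0% higher. DESeq2 called none of the members either.

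**Figure D5:**
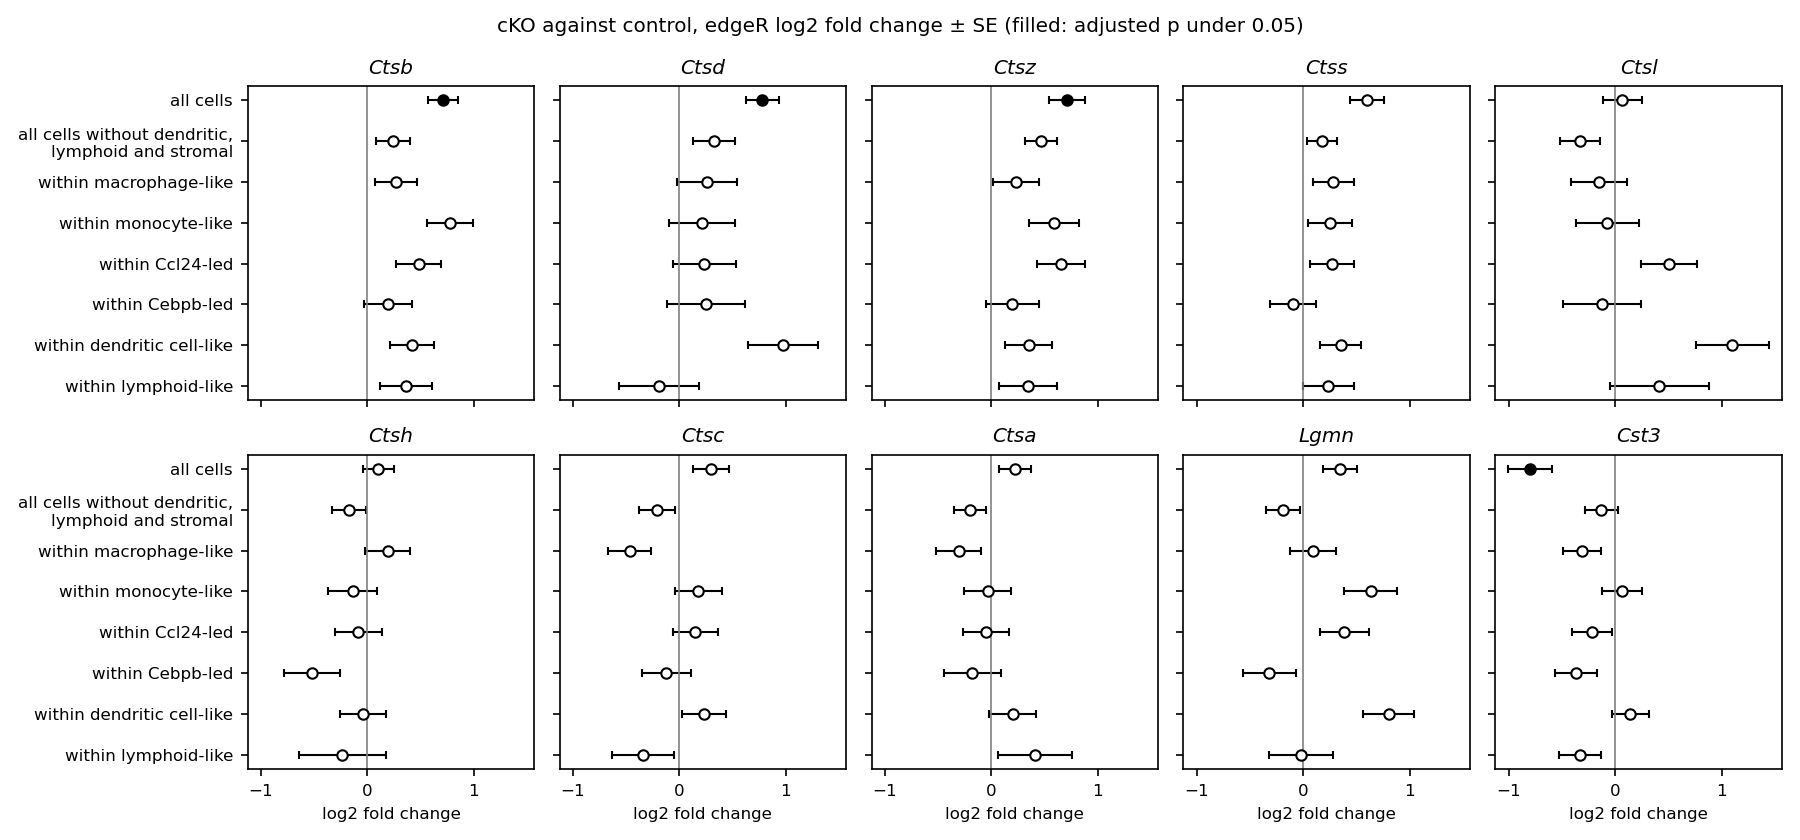
Log2 fold change (cKO over control) with its SE for each member, over all cells, over all cells without the dendritic, lymphoid and stromal cell-like cells, and within each cell type; filled points have an adjusted p under 0.05. The filled points are Ctsb, Ctsd and Ctsz (0.71 to 0.78) and Cst3 (−0.80) over all cells, and no other point is filled.

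Other lysosomal genes were taken from lists of 77 genes, of which 75 were in the table, chosen by function. Over all cells 69 were tested, and 3 rose and 4 fell, beside 2.99% called higher and 1.48% called lower of all genes. The genes are named as values and not as a change of the lists. Cstb, which encodes the intracellular cathepsin inhibitor stefin B, rose from 415 ± 141 CPM to 777 ± 126 CPM (n = 4 each, edgeR adjusted p = 0.0258). The cholesterol carrier Npc2 rose from 964 ± 128 to 1454 ± 233 CPM (edgeR adjusted p = 0.0299), and the lysosomal acid phosphatase Acp2 from 45.3 ± 5.40 to 66.7 ± 7.61 CPM (edgeR adjusted p = 0.0431). Ppt1, the gene most like Cst3 above, fell from 451 ± 104 to 256 ± 26.0 CPM (edgeR adjusted p = 0.0298). Cd74, the invariant chain that cathepsins degrade, fell from 26527 ± 2182 to 17433 ± 2275 CPM (edgeR adjusted p = 0.0441). Ctsf, a further cysteine cathepsin, fell from 11.7 ± 5.90 to 2.28 ± 1.69 CPM (edgeR adjusted p = 0.0376) and had 0 UMIs in 1 cKO mouse. All these values are sums over all cells, whose makeup by cell type differed between the groups as given above. The part of that makeup in the rises and falls was not tested.

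Between the macrophage-like and monocyte-like cells, 63 of these genes were tested, and 25 were higher and 8 lower in the macrophage-like cells, beside 12.2% higher and 12.6% lower of all genes, so the lower count was near the background. Of 8 further peptidases 4 were higher and 1 was lower: Ctsf (log2 3.77) and the carboxypeptidase Cpq (2.42) were higher and the aspartic protease Napsa (−4.55) was lower. Of 4 other inhibitors, Serpinb6a (4.20) and Serpina3g (2.08) were higher and Serpinb1a (−3.96) was lower. Of 26 glycosidases and lipid hydrolases, 13 were higher, led by the acid phosphatase Acp5 (4.32), Galc (2.14) and Acp2 (1.95), and 3 were lower. Of 5 activators and lipid carriers, Grn (0.89) was higher, and Npc2 (−0.57) and Psap (−0.41), the prosaposin gene, were lower. Of 12 membrane proteins and proton pump subunits, 3 were higher (Scarb2 0.77, Lamp1 0.61, Atp6ap2 0.53) and 1 was lower. Of 6 sorting and regulatory genes only Mitf (1.54) was called, and of the 2 antigen-processing partners Cd74 (4.20) was. The edgeR adjusted p of these named genes ranged up to 0.0127, for Mitf.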

How the data were processed

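The authors sorted cells, prepared 10x Genomics 3′ v2 libraries loading each mouse into its own well of 1 cartridge on 1 day, and ran Cell Ranger 2.1.0 with STAR 2.5.3a on mm10 (Ensembl 84, with EYFP added), merging the wells without down-sampling. The values they deposited are whole-number UMI counts per gene and cell, not normalized. From these counts, cells with log10 UMIs of at least 2.8, log10 genes of at least 2.6, at most 5% mitochondrial UMIs and no hemoglobin UMI were kept. Doublets were called with Scrublet (scanpy 1.11.5) and kept. Cells were clustered with scran 1.30.0 and bluster 1.12.0 on genes other than members, lists and markers. Counts were summed per mouse, or per mouse and cell type with at least 20 cells, since the mouse is the replicate. Sums were tested with edgeR 4.0.16 (TMM, quasi-likelihood, Benjamini-Hochberg over all genes, false discovery rate 0.05), with DESeq2 1.42.0 and limma 3.58.1 (voom) as alternatives in R 4.3.3. CPM uses the sum's own total. Paired differences used exact sign-flip tests and shares exact permutation tests, all two-sided. The fits were tested on simulated sums that were independent of each other and held larger changes than those of the members between groups. Such data do not cover sums that share mice or changes as small as these.

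The members and lists were chosen with earlier results of these data known. Named genes are every member in each comparison, up to 3 called genes of each other list with the largest log2 fold change, and the 3 genes most like each member over genes with a mean of at least 20 CPM. Some genes that this rule names are not reported here. Symbols were available for 16800 of 16889 genes. No set test was run.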

Additional observations from a re-analysis of the deposited data

Results flagged for a closer look

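Of 40 groups of 4 or more mice tested for a mouse that stands apart (Dixon's test, in which chance gives about 1 in 20), 2 held one. Over all cells, Cst3 of control replicate 2 was 12808 CPM, while the other control mice had 7835 to 8574 CPM. In dendritic cell-like cells, Ctsd of control replicate 4 was 125 CPM, while the other control mice had 35.3 to 47.6 CPM. Without control replicate 2 the log2 fold change of Cst3 over all cells was −0.62 (edgeR adjusted p = 0.167). Without control replicate 4 that of Ctsd in dendritic cell-like cells was 1.56 (edgeR adjusted p = 0.0057). Without cKO replicate 8 the same Ctsd value was −0.051 (edgeR adjusted p = 0.998). The cKO mice had 65.3, 71.2 and 227 CPM of Ctsd in these cells, so the rise hangs on single mice.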

How the results depend on the processing

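No paired analysis was possible because control and cKO mice share no replicate numbers. For macrophage minus monocyte, where the block is the mouse, the fit with no replicate block called 0 members lower in place of 1, with edgeR adjusted p of 0.0543 for Cst3 and 0.0531 for Ctsa.

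Over all cells, 510 genes were called. The count was 264 as the mean of effects within types, taken over monocyte-like, macrophage-like, Ccl24-led and Cebpb-led cells. It was 787 with no filter on low counts, 273 without the Il1a-led cluster (chosen after seeing the data) and 145 to 712 without 1 mouse. The 3 members called higher became 1 without doublets, 0 without dendritic, lymphoid and stromal cell-like cells, and 0 to 4 without 1 mouse. Ctsz also lost its call without TMM (edgeR adjusted p = 0.0572) and without the Il1a-led cluster (0.0852). It was not called without the mice under 100 cells either (0.0588, chosen after seeing the data). Ctsd lost its call as the mean of effects within types (0.555). With no filter on low counts, Ctss was called too (edgeR adjusted p = 0.0466). The 1 called lower became 0 as the mean of effects within types, without doublets, without those 3 types, without the mice under 100 cells, without the Il1a-led cluster, and 0 to 1 without 1 mouse. DESeq2 also called Ctss (0.60, adjusted p = 0.0237). For macrophage minus monocyte, 2146 genes became 1400 with DESeq2 and 1754 to 2146 without 1 mouse; 9 members higher became 7 with the full-depth macrophage cluster alone (chosen after seeing the data) and 8 to 9 without 1 mouse, and 1 lower became 0 with DESeq2 or with sums of at least 10 cells, and 0 to 1 without 1 mouse. For the interaction, 1 gene became 29 (DESeq2), 2 (no TMM, or the full-depth cluster alone), 58 (no filter), 23 (nearest-neighbour graph), 0 (no doublets, clusters from all genes, 12 clusters or voom) and 0 to 23 without 1 mouse, with 0 members throughout. Within types, 271 genes summed over types became 444 (DESeq2), 661 (no filter), 156 (clusters from all genes, 5 types) and 129 to 363 without 1 mouse. Members called higher within types, 0, became 4 (DESeq2), 3 (no filter, graph or voom) and 0 to 2 without 1 mouse; members called lower, 0, became 1 with voom. The cause of these changes was not tested. Depth limits the low members: Ctsl and Ctsd rest on 8 to 133 UMIs per mouse in dendritic cell-like cells, and Ctsl on 3 to 17 in lymphoid cell-like cells.

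No called member changed sign under any of these alternatives. Of the members that were not called, the following log2 fold changes changed sign. Within the Ccl24-led cluster, the sign changed with 12 clusters for Ctsa (0.077), Ctsh (0.11), Cst3 (0.031) and with clusters from all genes for Ctsc (−0.13), Ctsd (−0.031), Ctsh (0.030). Within the Cebpb-led cluster, the sign changed without TMM for Ctsc (0.0087), Ctsl (0.0032), Ctss (0.033) and with graph clusters for Ctsl (0.23), Ctss (0.12). Within dendritic cell-like cells, the sign changed with clusters from all genes for Ctsa (−0.15), Ctsb (−0.0036), Ctsc (−0.10), without TMM for Ctsh (0.016) and without doublets for Ctsh (0.0070). Within lymphoid cell-like cells, the sign changed with up to 10% mitochondrial UMIs for Lgmn (0.00053), with at least 10 cells per sum for Lgmn (0.00035) and with voom for Lgmn (0.018). Within macrophage-like cells, the sign changed with the full-depth cluster alone for Ctsd (−0.0069) and with graph clusters for Ctsh (−0.17), Ctsl (0.082), Ctss (−0.012). Within monocyte-like cells, the sign changed with graph clusters for Ctsa (0.018), Ctsl (0.34), Cst3 (−0.10), with clusters from all genes for Ctsl (0.15), with 12 clusters for Ctsl (0.12), with DESeq2 for Cst3 (−0.090), without TMM for Cst3 (−0.089) and with at least 10 cells per sum for Cst3 (−0.073). For the interaction, the sign changed with clusters from all genes for Ctsd (−0.46), Ctss (−0.13), with 12 clusters for Ctsd (−0.12), with graph clusters for Ctsd (−0.30), Ctsh (−0.045), Ctss (−0.41), with voom for Ctsd (−0.083), Ctss (−0.025), with the full-depth cluster alone for Ctsd (−0.23), with DESeq2 for Ctsl (0.080) and without TMM for Ctsl (0.14). Over all cells, the sign changed as the mean of effects within types for Ctsa (−0.14), Ctsc (−0.065), Ctsh (−0.14), without the dendritic, lymphoid and stromal cell-like cells for Ctsa (−0.20), Ctsc (−0.21), Ctsh (−0.17), Ctsl (−0.33), Lgmn (−0.19), without the mice under 100 cells for Ctsh (−0.019), without TMM for Ctsl (−0.030) and without the Il1a-led cluster for Ctsl (−0.035). Without 1 mouse at a time, values crossed 0 within the Ccl24-led cluster for Ctsd (−0.087 to 0.37), and within the Cebpb-led cluster for Ctsa (−0.38 to 0.0070), Ctsb (−0.067 to 0.49), Ctsc (−0.23 to 0.23), Ctsl (−0.39 to 0.29), Ctss (−0.23 to 0.034), Ctsz (−0.027 to 0.42). In the same runs they did so within dendritic cell-like cells for Cst3 (−0.0084 to 0.27), Ctsa (−0.033 to 0.41), Ctsb (−0.039 to 0.62), Ctsc (−0.035 to 0.41), Ctsd (−0.051 to 1.56), Ctsh (−0.25 to 0.061), and within lymphoid cell-like cells for Ctsc (−0.59 to 0.036), Ctsd (−0.37 to 0.024), Ctsh (−1.11 to 0.60), Ctss (−0.13 to 0.48), Lgmn (−0.16 to 0.23). In the same runs they did so within macrophage-like cells for Ctsl (−0.28 to 0.015), Lgmn (−0.030 to 0.15), and within monocyte-like cells for Cst3 (−0.086 to 0.17), Ctsc (−0.018 to 0.26), Ctsd (−0.0082 to 0.44), Ctsl (−0.27 to 0.030). In the same runs they did so for the interaction for Ctsd (−0.049 to 0.31), Ctsl (−0.18 to 0.15), Ctss (−0.036 to 0.21), and over all cells for Ctsl (−0.094 to 0.18).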
